A study of Rattus norvegicus with 6 samples.

Results

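Plasma was screened for microRNAs (miRNAs, short RNAs that repress messenger RNAs) that could mark liver injury by thioacetamide, a liver toxicant. The miRNAs described are rno-miR-19a and rno-miR-19b, which form the miR-19 seed family on the array, and rno-miR-25, rno-miR-92a and rno-miR-363, which belong to the miR-25/92 seed family. They were picked by name and are 5 of the 677 rat miRNAs on the array, with 10 of its 1644 probes. RNA came from plasma of 6 male Wistar rats that weighed 393 to 428 g at the start; their age is not given in the sources used here. The 3 vehicle rats received 0.9% saline alone, and the 3 thioacetamide rats received 100 mg/kg thioacetamide in the same saline. All doses went into the peritoneum and all plasma was taken 24 h later, with 1 rat on each array and 125 µl of plasma extracted per rat. The vehicle rats gained 3 to 4 g and the thioacetamide rats lost weight, with changes of -18 to -20 g. Plasma holds RNA shed by many tissues, and as in any bulk sample the number of cells that shed a miRNA and the amount shed per cell cannot be told apart.

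A miRNA finds its targets mainly through its seed, bases 2 to 8 from the 5′ end, so miRNAs with 1 seed share many predicted targets. These 5 miRNAs are cut from related clusters. The miR-17/92 cluster yields miR-19a, miR-19b and miR-92a, a second cluster on the X chromosome yields miR-19b, miR-92a and miR-363, and miR-25 comes from the miR-106b/25 cluster inside the gene Mcm7, which encodes part of the helicase that unwinds DNA for replication. The miR-17/92 cluster is known for driving proliferation and survival. In blood, miR-92a and miR-25 are abundant in red blood cells.

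The mature sequences show what holds each family together and how far its members differ outside the seed. They are the RefSeq records of rat assembly GRCr8, 5′ to 3′, with the seed in capitals, and were matched to all 5 members through the probes.
miR-19a: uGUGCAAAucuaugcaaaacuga
miR-19b: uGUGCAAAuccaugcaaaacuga
miR-25: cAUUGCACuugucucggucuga
miR-92a: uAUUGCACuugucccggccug
miR-363: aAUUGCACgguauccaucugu
The miR-19 seed is GUGCAAA, and miR-19a and miR-19b are identical at 22 of 23 bases, with the single difference U11C counted from the 5′ end. The miR-25/92 seed is AUUGCAC. Over the first 21 bases miR-25 and miR-92a differ at 3 positions (C1U, U14C and U18C), all outside the seed, whereas miR-363 differs from miR-92a at 11 and from miR-25 at 13.

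Each member is read by a longer and a shorter probe with 10 spots each, all complementary to the 3′ part of the miRNA. The longer probe of each is printed, as the array files write it, because the pairs of probes that are hardest to tell apart lie within the families.
miR-19a probe: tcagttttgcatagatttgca
miR-19b probe: tcagttttgcatggatttgc
miR-25 probe: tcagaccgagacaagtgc
miR-92a probe: caggccgggacaagtgc
miR-363 probe: acagatggataccgtgc
The miR-19a and miR-19b probes each have 1 mismatch to the other miRNA. The miR-25 probes have 3 mismatches to miR-92a, and the miR-92a probes have 2 to miR-25. The miR-363 probes differ from every other member at 9 or more bases. Cross-hybridisation was not tested. In the rat build rn4 the array files place these probes at chr15:99854069-99854088 for miR-19a, at chr15:99854376-99854395 and chrX:139740996-139741015 for miR-19b and at chr12:17608026-17608042 for miR-25. The miR-92a probe lies at chr15:99854493-99854509 and chrX:139740860-139740876, and the miR-363 probe at chrX:139740711-139740726. The intervals on chromosomes X and 12 are written in descending order. Because miR-19b and miR-92a are each made from 2 loci with the same mature sequence, the array cannot tell which locus a signal came from.

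Detection of a probe required the scanner software to call more than 50% of its spots well above background, and detection of a member required this for either probe. The arrays were of 2 kinds by their background. On vehicle 2, vehicle 3 and thioacetamide 1, in slide columns 1 and 2, the spread of all miRNA spots was 33.3 to 96.6 intensity units and 212 to 355 of 13540 spots were well above background. On vehicle 1, thioacetamide 2 and thioacetamide 3, in columns 3 and 4, the spread was 4.92 to 12.8 and 1044 to 1344 spots passed. Each side of the slide held both groups, but thioacetamide 1 was the only thioacetamide array of columns 1 and 2. Vehicle 1 was the only vehicle array of columns 3 and 4. Results are given within each side where they differ, and rest on that single array for 1 group. Of all miRNAs, 59 were detected on at least 3 of the 6 arrays and were tested; they include 4 of the 5 members.

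Of the 5 miRNAs, miR-92a was the one that rose after thioacetamide when the arrays were compared without scaling, by 3.05-fold, where 37.3% of the 59 tested miRNAs passed as higher. miR-19b was higher on all 3 thioacetamide arrays, as 45.8% of the 59 were, without passing the test, miR-25 and miR-19a overlapped between groups, and miR-363 was not detected. With the arrays scaled to a common 75th percentile, 0 of the 4 tested members passed, where 15.3% of the 59 passed as higher. The ratio of miR-92a to miR-25, which no scale factor per array can alter, was 2.12-fold higher in the thioacetamide rats, with no overlap. It did not pass: the exact permutation p was 0.1, the smallest that 3 against 3 can give, and 0.15 adjusted over 3 pairs. The ratio of miR-25 to miR-19b also separated the groups.

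miR-19b, the family member made from both chromosomes 15 and X, was detected on all 6 arrays. Its unscaled signal, the sum of its probe means, was 548, 467 and 289 on vehicle 1, 2 and 3 and 1292, 785 and 896 on thioacetamide 1, 2 and 3. The lowest thioacetamide array lay above the highest vehicle array, and the group means were 435 ± 132 and 991 ± 267 (SD, n = 3 each). The unscaled log2 change was 1.21 ± 0.49 (SE, limma adjusted p = 0.0914), a 2.31-fold difference with a 95% interval of 1.07 to 5.00. The change was 1.81 among the arrays of columns 1 and 2 and 0.61 among those of columns 3 and 4. Both probes read higher in every thioacetamide rat, although the shorter one was detected on vehicle 1, thioacetamide 2 and thioacetamide 3 alone. The longer one ran from 257 to 469 on the vehicle arrays and from 660 to 1105 on the thioacetamide arrays, and the shorter one from 31.9 to 78.6 and from 125 to 187. The 187 is on thioacetamide 1, where the brightest negative control averaged 289. On thioacetamide 3 the shorter probe read 138, again below the brightest negative control, at 195.

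miR-19a, the member made from chromosome 15 alone, was near background on several arrays. Its summed signal was 109, 69.5 and 29.3 on vehicle 1, 2 and 3 and 69.3, 74.8 and 85.4 on thioacetamide 1, 2 and 3. It was detected on vehicle 1, thioacetamide 2 and thioacetamide 3, which are exactly the arrays of slide columns 3 and 4. The groups overlapped, with the brightest and the dimmest arrays both from vehicle rats. Means were 69.2 ± 39.8 and 76.5 ± 8.15 (SD, n = 3), and the unscaled log2 change was 0.14 ± 0.50 (SE, adjusted p = 0.914). Its 95% interval, -1.01 to 1.29, holds more than a doubling either way, so a difference of that size was not detectable here. On every array but vehicle 1 the miR-19a signal was below the brightest of 7 negative control probes, whose mean was 113 to 289 on those 5 arrays and 29.5 on vehicle 1.

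The miR-19 family total, adding both members, was 657, 537 and 318 on the vehicle arrays and 1362, 860 and 981 on the thioacetamide arrays without scaling. The thioacetamide arrays were all higher, by 2.17-fold between the means of log2 totals. After scaling the difference was 1.28-fold and the groups overlapped, with 702, 692 and 509 against 599, 1110 and 786.

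miR-92a, the miR-25/92 family member released from both the chromosome 15 and the X cluster, was also detected on all 6 arrays. Its unscaled signal was 486, 620 and 364 on vehicle 1, 2 and 3 and 1548, 1168 and 1716 on thioacetamide 1, 2 and 3. Every thioacetamide array was above every vehicle array, with group means of 490 ± 128 and 1477 ± 280 (SD, n = 3). The unscaled log2 change was 1.61 ± 0.46 (SE, limma adjusted p = 0.0262), with a 95% interval of 1.46- to 6.36-fold. The change was as large within each side of the slide, at 1.71 in columns 1 and 2 and 1.54 in columns 3 and 4, though it did not pass there with 3 arrays (adjusted p = 0.213 and 0.0660). Leaving out vehicle 1, vehicle 3 or thioacetamide 3 kept a change of 1.62, 1.41 and 1.49 but ended the call, with adjusted p = 0.0573, 0.108 and 0.123. The groups were in the same order by both probes, although the shorter one was detected on vehicle 1, thioacetamide 2 and thioacetamide 3 alone. The longer one measured 268 to 494 on vehicle and 1012 to 1484 on thioacetamide arrays, and the shorter one 64.4 to 126 and 156 to 286. The 286 is on thioacetamide 1, just below the brightest negative control there, at 289.

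miR-25 has the same seed as miR-92a but is cut from the transcript of Mcm7. It was detected on all 6 arrays at 347, 401 and 241 on vehicle 1, 2 and 3 and at 634, 285 and 557 on thioacetamide 1, 2 and 3. Thioacetamide 2 lay among the vehicle arrays, so the groups overlapped. Means were 330 ± 81.6 and 492 ± 184 (SD, n = 3), and the unscaled log2 change was 0.53 ± 0.51 (SE, adjusted p = 0.530; 95% interval -0.65 to 1.70). Within the slide sides the change was 1.03 in columns 1 and 2 and 0.20 in columns 3 and 4.

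miR-363, the X cluster's own member of the family, was detected on 0 of 6 arrays, by either probe, and was not tested. Its signal was 4.14, 55.0 and 64.1 on vehicle 1, 2 and 3 and 148, -0.313 and 5.58 on thioacetamide 1, 2 and 3. The 3 higher values are those of slide columns 1 and 2, where 90% of the undetected miRNAs lay between limits as wide as -328 and 476. Both seed relatives on the array that are no members, miR-32 and miR-92b, were likewise detected on 0 arrays. Their sequences carry the same seed in another context.
miR-32: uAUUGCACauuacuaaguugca
miR-92b: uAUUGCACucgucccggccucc
The miR-92b sequence differs from miR-92a at 2 of 21 bases (U10C and G21C). It was not detected on the 3 arrays where miR-92a measured 1168 to 1716.

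**Figure D1:**
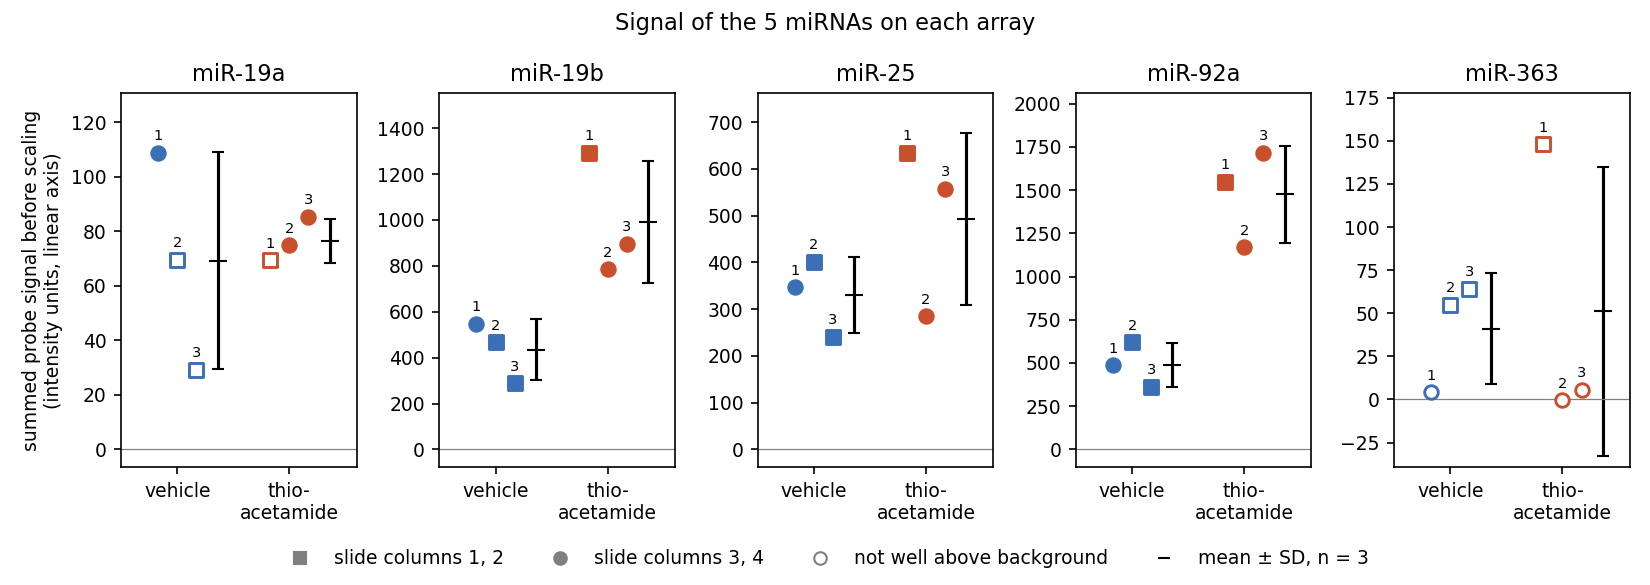
Unscaled summed probe signal (intensity units, linear axis, a separate axis per miRNA) of the 5 miRNAs on each array, numbered by replicate; squares are slide columns 1 and 2, circles columns 3 and 4, open symbols arrays without a detected probe, and bars mean ± SD of 3 arrays. miR-92a runs from 364 to 620 in vehicle and from 1168 to 1716 in thioacetamide rats, while miR-363 is open on every array.

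The miR-25/92 family total, adding miR-25, miR-92a and the undetected miR-363, was 838, 1076 and 669 on the vehicle arrays and 2330, 1453 and 2278 on the thioacetamide arrays without scaling. It was 2.34-fold higher, with no overlap, and after scaling it was 1.38-fold higher with overlapping groups (895, 1387 and 1068 against 1025, 1874 and 1825). Both families' totals were thus higher in every thioacetamide rat without scaling and overlapped with it.

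These unscaled differences have to be read against the whole array. Without scaling the median log2 change of the 59 tested miRNAs was 0.97, and 37.3% of them passed the test as higher and 0% as lower. Of the 4 tested members 1 passed as higher, miR-92a, and at an unadjusted p under 0.05 miR-19b did as well, as did 24 of the 59. The groups did not overlap, in the higher direction, for 45.8% of the 59 and for 2 of the 4 members, and in the lower direction for 0% and for none. By size of change, from the highest, miR-92a ranked 22, miR-19b 28, miR-25 36 and miR-19a 45 of 59. The members' median change was 0.87. The members thus lay around the middle of all miRNAs tested, and miR-92a was not among the most changed.

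Scaling to the 75th percentile of the 12 probes that every array detected took the median change of all 59 from 0.97 to 0.45 and changed the picture for every member. miR-92a then measured 520, 799 and 581 on vehicle 1, 2 and 3 and 681, 1507 and 1374 on thioacetamide 1, 2 and 3. Thioacetamide 1 then lay among the vehicle arrays, and the log2 change was 0.85 ± 0.45 (SE, limma adjusted p = 0.220). At these scale factors the change was -0.00067 for columns 1 and 2, where thioacetamide 1 is the only thioacetamide array. It was 1.47 for columns 3 and 4, where vehicle 1 is the only vehicle array. Without vehicle 3, and with the scaling derived anew, it was 0.03. miR-19b measured 586, 602 and 462 against 568, 1013 and 718, a log2 change of 0.45 ± 0.38 (adjusted p = 0.408); it ranked 30 of 59 and so was itself the median miRNA. Without vehicle 3, again with the scaling derived anew, the change of miR-19b was -0.44. Both values without vehicle 3 thus reflect new scale factors as well as the missing rat. miR-25 measured 371, 517 and 385 against 279, 367 and 446, with a change of -0.23 ± 0.37 (adjusted p = 0.691), and miR-19a had a change of -0.23 ± 0.50 (adjusted p = 0.762). For all 4 the groups overlapped, thioacetamide 1 being the lowest thioacetamide array of each. Of the 59, 15.3% passed as higher and 1.69% as lower, and the groups separated for 27.1% in the higher and 10.2% in the lower direction. Of the members, 0 passed by limma's adjusted p, 0 had an unadjusted p under 0.05, against 16 higher and 5 lower of the 59, and 0 separated the groups.

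The scaling is not independent of these miRNAs. Of the 12 probes that set it, 3 belong to members, namely the longer probes of miR-25 and miR-92a and the longer probe of miR-19b. On vehicle 2, thioacetamide 2 and thioacetamide 3 the percentile lay between the miR-92a probe and a miR-16 probe, so miR-92a was there partly scaled to itself. The scale factor of thioacetamide 1 was 2.27 against 0.626 to 1.25 on the other 5 arrays. Taking the percentile over the other 9 probes alone changed that factor to 1.62 and those of thioacetamide 2 and 3 from 0.775 and 1.25 to 0.502 and 0.841. miR-92a then had a log2 change of 1.97 ± 0.48 and miR-19b of 1.57 ± 0.37 (SE, limma adjusted p = 0.0209 for each), both past the threshold, where the median of all 59 was 1.51 and 39% passed as higher. miR-25 was at 0.89 (adjusted p = 0.122) and miR-19a at 0.70 (adjusted p = 0.398). Scaling instead to the labelling spike-in RNA gave changes close to those without scaling, 1.67 for miR-92a (adjusted p = 0.0411), 1.27 for miR-19b (adjusted p = 0.113), 0.59 for miR-25 and 0.20 for miR-19a, with 35.6% of the 59 passing as higher. The sign for miR-25 and miR-19a therefore differed between scalings, whereas miR-92a and miR-19b were positive under these 4 and turned negative with quantile normalization, at -0.36 and -0.28.

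**Figure D2:**
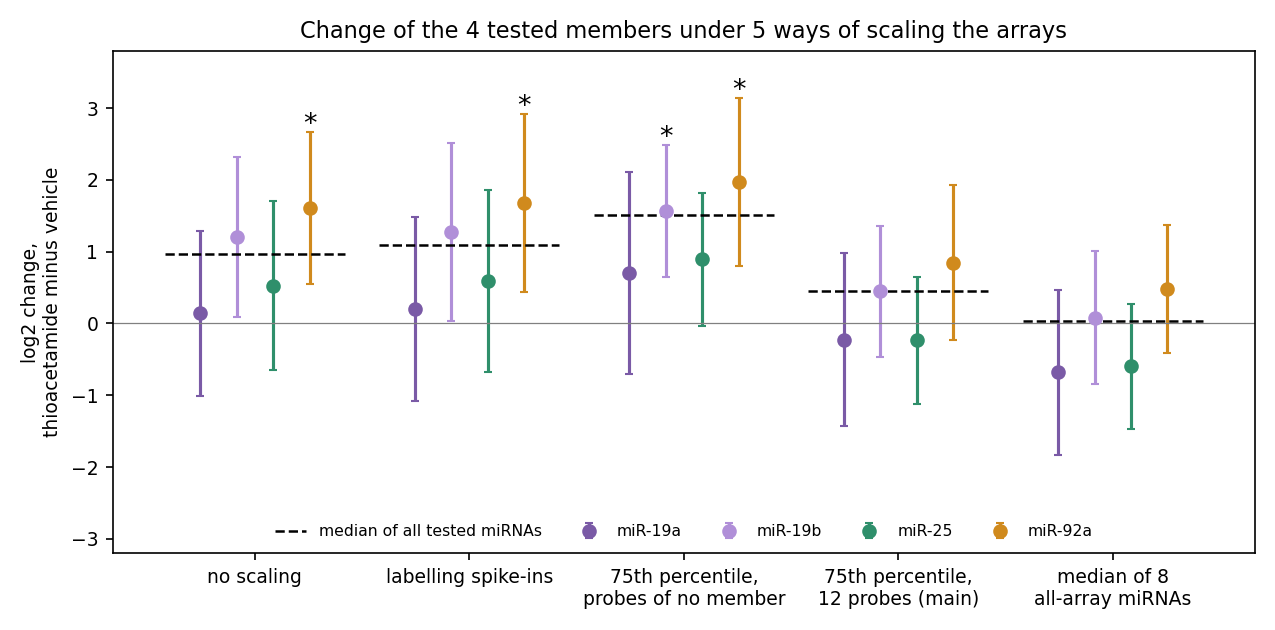
Log2 change (thioacetamide minus vehicle, 3 arrays per group) of the 4 tested miRNAs with 95% intervals under 5 ways of scaling the arrays; dashes mark the median of the 59 tested miRNAs and stars an adjusted p under 0.05. miR-92a passes without scaling, with spike-ins and with the 9 probes of no member, and does not pass at 0.85 with all 12 probes.

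Ratios between miRNAs on the same array do not depend on a scale factor per array, and show unequal change without saying which miRNA moved. The log2 ratio of miR-92a to miR-25, the seed sisters from different transcripts, was 0.49, 0.63 and 0.59 on vehicle 1, 2 and 3 and 1.29, 2.04 and 1.62 on thioacetamide 1, 2 and 3. The vehicle arrays lay close together, with an SD of 0.07, and every thioacetamide array was higher. The difference was 1.08 ± 0.22 (SE), with an exact permutation p of 0.1, two-sided, which is the smallest that 3 against 3 can give and 0.15 after Benjamini-Hochberg adjustment over the 3 pairs compared. Columns 1 and 2 alone gave 0.68 and columns 3 and 4 alone 1.34, and the difference ran from 0.89 to 1.26 when each rat was left out in turn. Quantile normalization, which changes ratios within an array, brought the pair closer, at log2 changes of -0.36 for miR-92a and -0.72 for miR-25.

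The log2 ratio of miR-25 to miR-19b was -0.66, -0.22 and -0.26 on the vehicle arrays and -1.03, -1.46 and -0.69 on the thioacetamide arrays. The groups were apart, though vehicle 1 and thioacetamide 3 nearly met, and the difference was -0.68 ± 0.27 (SE, exact permutation p = 0.1, adjusted 0.15). miR-92a and miR-19b, which share both of their clusters, had a ratio of -0.17, 0.41 and 0.33 on the vehicle and 0.26, 0.57 and 0.94 on the thioacetamide arrays. These overlapped, with a difference of 0.40 ± 0.27 (SE, exact permutation p = 0.3, adjusted 0.3), and columns 1 and 2 alone gave -0.11 where columns 3 and 4 gave 0.93. Ratios to miR-19a were not tested because its scaled signal was at the floor on thioacetamide 1.

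**Figure D3:**
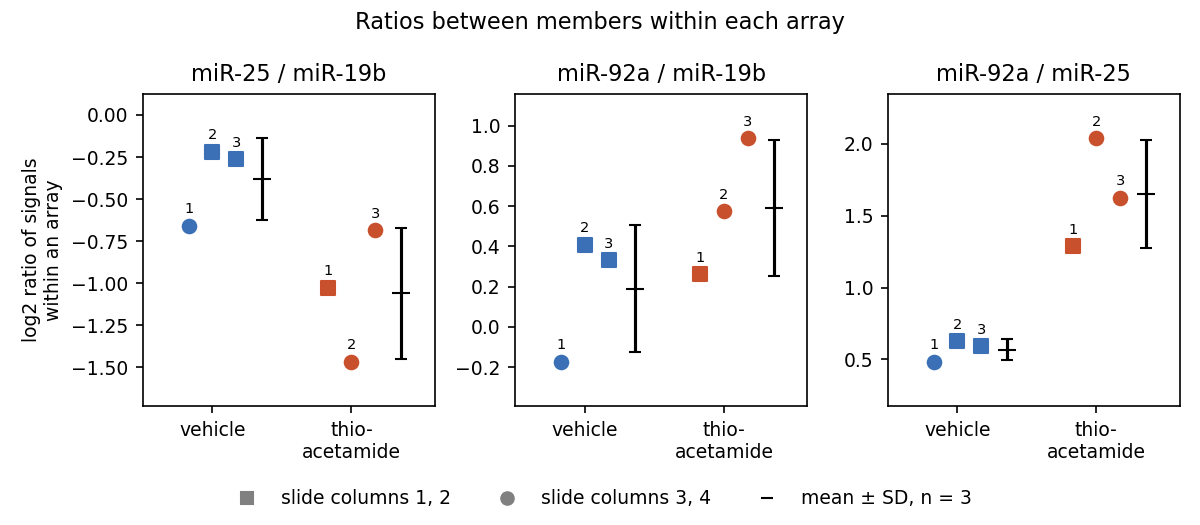
Log2 ratio of signals within each array for the 3 pairs of miRNAs measured on every array (separate axes), with replicate numbers, slide sides as squares and circles, and mean ± SD of 3 arrays. The ratio of miR-92a to miR-25 lies between 0.49 and 0.63 in vehicle rats and between 1.29 and 2.04 in thioacetamide rats; that of miR-92a to miR-19b overlaps.

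As a share of the summed signal of the 59 tested miRNAs, miR-92a made up 2.74% ± 0.18 in vehicle and 2.13% ± 0.18 in thioacetamide rats (SD, n = 3). miR-19b made up 2.43% ± 0.47 and 1.45% ± 0.43, and miR-25 1.84% ± 0.08 and 0.692% ± 0.191. The shares were thus lower although the signals were not, and the sum they are taken from was itself larger: the 4 hepatocyte markers (miR-122, miR-122*, miR-192 and miR-194) added 172 to 249 units on vehicle arrays and 20566 to 41343 on thioacetamide arrays. Their part in the shares was not tested.

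The clusters' other products give the nearest comparison. Besides 26 names listed for the 3 clusters, miR-17-1-3p and miR-17-2-3p were included. Of all these, 20 were on the array, 6 were detected on any array and 4 were tested. None of the 4 passed by limma in either direction, with or without scaling, where 15.3% and 37.3% of all 59 were higher; at an unadjusted p under 0.05, miR-106b was lower with scaling (adjusted p = 0.0686), as were 5 of the 59, and none of the 4 was lower or higher without. Their median log2 change was -0.58 with scaling and 0.17 without. With scaling it was -1.35 for miR-106b, of the miR-25 transcript, -0.49 for miR-93, of the same transcript, -0.57 for miR-20a, of the chromosome 15 cluster, and -0.60 for miR-20b-5p, of the X cluster. These 4 are of the miR-17 seed group, whose seed is unlike those of miR-19 and miR-25/92.

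Within arrays, miR-92a was set against miR-20a, its partner on chromosome 15. The log2 ratio was 0.89, 1.47 and 1.53 on the vehicle and 2.35, 2.76 and 3.03 on the thioacetamide arrays, without overlap. miR-19b to miR-20a, from the same cluster, was 1.06, 1.07 and 1.19 against 2.09, 2.19 and 2.09, again without overlap. miR-25 to miR-93, which lie within the same Mcm7 transcript, overlapped at 1.25, 1.57 and 1.82 against 1.94, 1.68 and 1.81, whereas miR-25 to miR-106b, also of that transcript, did not, at -0.17, 0.36 and 0.48 against 1.11, 0.80 and 2.11. These ratios are descriptions without a test, and miR-20a, miR-93 and miR-106b were each detected on 2 arrays of each group. Without scaling these partners changed by 0.19, 0.27 and -0.59, below the median of 0.97 over the 59 tested miRNAs. How many of the 59 would separate the groups in a ratio to the same partners was not counted, so the separations are not particular to the members.

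Red blood cells are rich in miR-451, and haemolysis can add it to plasma together with miR-92a and miR-25. miR-451 was detected on all 6 arrays, at 8265, 6428 and 4257 on vehicle 1, 2 and 3 and at 8665, 2317 and 3544 on thioacetamide 1, 2 and 3. With scaling it fell by 1.31 on the log2 scale (SE 0.34, limma adjusted p = 0.0427), but 2 of the 12 scaling probes are its own. Over the 9 probes of no member its change was -0.19 (adjusted p = 0.670) and without scaling -0.56 (adjusted p = 0.598). The call thus held with the 12 probes and in neither of these. The same 2 miR-451 probes are among the 9, so that scaling too sets miR-451 partly against itself and cannot decide its change. The other erythrocyte marker on the array, miR-144, was detected on 0 arrays, and the pair summed to between 4206 and 8288 on vehicle and between 2317 and 8497 on thioacetamide arrays. The log2 ratio of miR-92a to miR-451 was -4.09, -3.37 and -3.55 on vehicle and -2.48, -0.99 and -1.05 on thioacetamide arrays, so miR-92a was higher relative to miR-451 in every thioacetamide rat. miR-19b and miR-25 showed the same order of groups, with mean differences of 1.76 and 1.08 against 2.16 for miR-92a. Other markers gave other orders. Against leukocyte miR-223 and miR-342-3p the ratios of miR-92a, miR-19b and miR-25 all overlapped, and against miR-150 only that of miR-92a separated, upward. Against hepatocyte miR-192 all of them were lower in every thioacetamide rat, with mean differences of -3.38, -3.78 and -4.46. These ratios carry no test, and the share of the 59 tested miRNAs whose ratio to miR-451 separates the groups was not counted. By their own unscaled signal, which is another measure, 45.8% of the 59 were higher in every thioacetamide rat. The median unscaled change of the 59 was 0.97, above that of miR-451. The part of red blood cell RNA in the members' signals was not tested.

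Of 6 leukocyte markers, 3 were tested and none passed (scaled log2 changes of 0.03 for miR-223, -0.91 for miR-150 and -0.48 for miR-342-3p; 0 at an unadjusted p under 0.05). The scaled sum of the 6 ranged from 393 to 636 on vehicle and from 329 to 523 on thioacetamide arrays, and miR-142-3p, miR-142-5p and miR-146a were detected on none. The 4 platelet and endothelial markers, miR-126, miR-126*, miR-221 and miR-222, were detected on 0 arrays, and summed to between -51.6 and 13.7 on vehicle and between -111 and 24.8 on thioacetamide arrays before scaling. All 3 tested hepatocyte markers were higher with scaling, where 15.3% of all 59 miRNAs passed as higher. miR-122 rose by 8.10 and miR-192 by 4.23 on the log2 scale. The other, miR-122*, was detected on 0 vehicle arrays. All 3 were detected on all 3 thioacetamide arrays and would meet the filter by those arrays alone, so no p-value is given for them. miR-122 and miR-192 were each detected on 1 vehicle array, so the sizes rest on vehicle signals mostly not above background, with miR-122 at the floor on vehicle 3. miR-194 was detected on none. The part of liver RNA in the miR-92a signal was not tested.

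**Figure D4:**
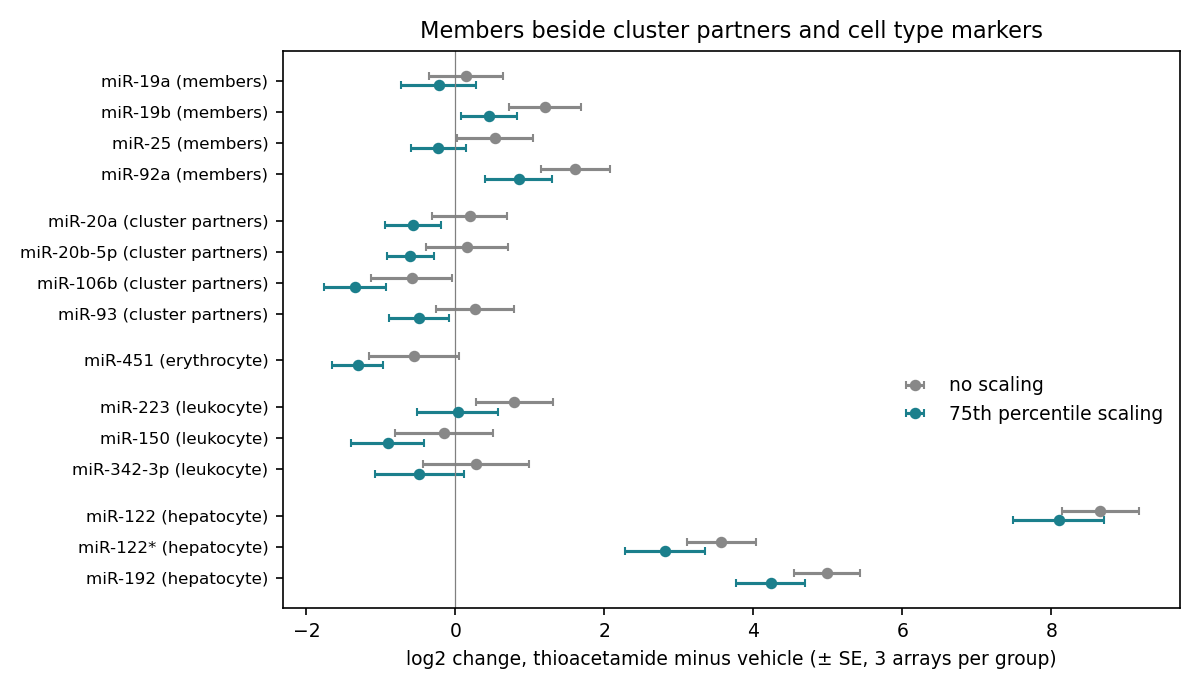
Log2 change (thioacetamide minus vehicle, ± SE, 3 arrays per group) of the 4 tested members, the 4 tested cluster partners and the tested erythrocyte, leukocyte and hepatocyte markers, without scaling in grey and with 75th percentile scaling in teal. miR-92a lies at 1.61 and 0.85, the cluster partners between -1.35 and 0.27, and miR-122 at 8.66 and 8.10.

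The tested miRNAs whose scaled profile over the 6 arrays ran most nearly parallel to each member were ranked by the SD of the log2 ratio among 58 candidates, as a description. miR-93, its partner in Mcm7, was nearest to miR-25 (SD 0.25), followed by miR-20a (0.33) and miR-15b (0.35), against a median of 1.13 for all candidates. miR-20a (0.34), miR-93 (0.36) and let-7i (0.45) were nearest to miR-19a. For miR-19b they were miR-107 (0.25), miR-320 (0.28) and miR-30e (0.30). For miR-92a they were miR-320 (0.29), miR-107 (0.34) and miR-19b (0.37). miR-320 was at the floor on 4 arrays and miR-107 on 2, so for these the likeness is partly set by the floor. miR-25 was in place 11 for miR-92a, at 0.64, behind miR-19b at place 3. By this measure miR-92a ran closer to its cluster partner miR-19b than to its seed sister. The other way round, miR-19a, also of the chromosome 15 cluster, was in place 20 at 0.77, behind miR-25, and it was at the floor on 1 array. The order was not tested.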

How the data were processed

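Plasma RNA was hybridised to 1-colour Agilent rat miRNA arrays, 1 rat per array, and groups were taken from the sample titles. The authors deposited intensity values, that is linear spot signals after background subtraction, with no scaling between arrays and some values below 0. The submitters' processing notes name Agilent Feature Extraction 10.7.3.1. The deposited matrix equals these scanner signals within 0.005. Well-above-background, outlier and saturation flags are other columns of the scanner files, and per the file headers the background call uses a multiple of 13. Control spots and outlier spots were left out, and no miRNA spot was saturated. A probe's remaining spots were averaged, and a miRNA's signal is the sum of its probe means.

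Arrays were compared unscaled and scaled to the 75th percentile of the 12 probes detected on all 6 arrays. Sums were raised to a floor, the 5th percentile of the sums of detected miRNAs (46.1 scaled, 43.6 unscaled), before log2. Changes near the floor depend on it. All 59 miRNAs with detection on 3 or more arrays entered a limma fit (version 3.58.1, under R 4.3.3) with treatment as its single term, and p-values were Benjamini-Hochberg adjusted over all 59 with a threshold of 0.05. The scripts were tested on simulated data. Folds are of mean log2 signals.

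All 5 members, every tested cluster partner and marker, every seed relative and the 3 most parallel miRNAs of each tested member are named. Members, lists and alternatives were chosen with earlier results of these data known. Of 677 miRNAs, 617 were matched to RefSeq mature sequences. Probe intervals are those of the files, and some are 1 base shorter than the probe. The p-values reflect how these 6 rats vary, and the number of arrays limits the precision. Whether same-numbered rats form pairs could not be told, as given with the alternatives.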

Additional observations from a re-analysis of the deposited data

How the results depend on the processing

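Changing one choice at a time from the scaled fit, all 5 calls among the 87 alternative values of the 4 tested members were increases of miR-92a or miR-19b. miR-92a had 21 of 23 values above 0 (lowest -0.36, highest 1.97), miR-19b 21 of 23 (-0.44 to 1.57), miR-25 5 of 23 (-1.06 to 0.89) and miR-19a 3 of 18 (-1.24 to 0.70). miR-92a passed without scaling (1.61), over probes of no member (1.97) and with spike-ins (1.67). Another of the 5 calls, miR-92a at 1.47 in slide columns 3 and 4 alone, rests on vehicle 1 as the only vehicle array. miR-92a turned with quantile normalization (-0.36) and in columns 1 and 2 alone (-0.00067). miR-19b passed over probes of no member (1.57) and turned with quantile normalization (-0.28) and without vehicle replicate 3 (-0.44). miR-25 turned positive without scaling (0.53), over probes of no member (0.89), with the percentile over all miRNA probes (0.030), with spike-ins (0.59) and in columns 3 and 4 alone (0.13). miR-19a turned positive without scaling (0.14), over probes of no member (0.70) and with spike-ins (0.20). Leaving out each rat gave 0.03 to 1.03 for miR-92a, -0.44 to 0.52 for miR-19b, -1.06 to -0.08 for miR-25 and -1.24 to -0.15 for miR-19a, with scaling, floor and tested miRNAs derived anew. miR-19a has no value with a floor 4 times as high, where every array is at the floor, or where fewer than 3 arrays detect it.

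Without scaling (alternatives chosen after seeing the data), all 13 values of miR-92a were above 0 and 7 passed. It no longer passed in columns 1 and 2 alone (1.71) or 3 and 4 alone (1.54), and leaving out each rat gave 1.41 to 1.79. All 13 values of miR-19b (0.61 to 1.81) and of miR-25 (0.20 to 1.03) were above 0 and 0 passed. miR-19a turned to -0.44 in columns 3 and 4 alone, to -0.056 with a block for slide side and to -0.19 without vehicle replicate 3; leaving out each rat gave -0.19 to 0.23.

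The deviations of same-numbered rats correlated at -0.70, -0.31 and -0.66. Same-numbered rats always lay on opposite sides of the slide, so these values cannot tell whether the replicate numbers pair the rats. With the replicate block miR-92a kept 1.61 without scaling but no longer passed (adjusted p = 0.1496), and 10 miRNAs were higher and 0 lower with scaling. It changed no other member's call.

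The ratio of miR-92a to miR-19b turned to -0.11 in columns 1 and 2 alone. The miR-19 family total changed by 1.12 on the log2 scale without scaling, 0.36 with it, and 1.72 and 0.48 in columns 1 and 2 and columns 3 and 4 alone. The miR-25/92 total changed by 1.23 without scaling, 0.47 with it and 1.59 over probes of no member.

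Of all miRNAs, 9 were called higher and 1 lower with scaling. The counts were 22 and 0 without scaling, 23 and 0 over probes of no member, 3 and 0 with the percentile over all miRNA probes, 21 and 0 with spike-ins, 5 and 2 with quantile normalization and 4 lower with arrays scaled to their median miRNA. They were 5 higher with normexp background, 4 lower with a floor 4 times as high, 0 lower with one 0.25 times as high, 14 and 5 with detection on at least 1 array, 0 and 2 on all 6, 2 and 0 with no filter, and 2 lower with the mean of the probes' log2 signals. A block for slide side gave 2 lower, columns 1 and 2 by themselves 0 and 0, and columns 3 and 4 by themselves 33 and 4. Leaving out each rat gave 6 to 18 higher and 0 to 7 lower. Without scaling, 14 were higher with a floor 4 times as high, 2 with detection on all 6 arrays, and 8 to 23 leaving out each rat.

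The number of arrays, the 3 arrays of high background and signals near the floor limit these values. The cause of each dependence was not tested, except that 3 of the 12 scaling probes belong to members.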
